A study of Mus musculus with 8 samples.

Results

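The enzymes that set and erase DNA methylation were followed here through the ac4C peaks of their mRNAs in mouse female germline stem cells (FGSCs) and in the differentiated germ cells derived from them (Dif-FGCs). The group comprised 8 genes, Dnmt1, Dnmt3a, Dnmt3b, Uhrf1, Tet1, Tet2, Tet3 and Tdg, and a peak was counted when the authors' annotation named one of them. N4-acetylcytidine (ac4C) is an acetylated cytidine in RNA that NAT10 writes, and acRIP-seq maps it by sequencing RNA fragments pulled down with an ac4C antibody (IP) beside the input RNA. The series held 8 libraries, with 2 IP and 2 input libraries for each of the 2 groups, and 1 peak list for each IP library called over its own input. FGSCs were an ovarian cell line labelled as the control group. Dif-FGCs were the same cells after differentiation to day 3, for which the methods describe a co-culture with granulosa cells and the addition of retinoic acid, BMP4 and bFGF. The methods give C57BL/6J as the background of the mice, and neither the origin nor the age of the animals behind the cell line is given in the sources used here. Of the 8 genes 7 carried peaks, and all 7 did so in each of the 4 libraries. Together they held 144 of 75481 peaks, which merged to 65 of 39860 loci when peaks overlapping by at least 1 bp were joined.

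DNA methyltransferases add a methyl group to cytosine in CpG dinucleotides. Dnmt3a and Dnmt3b place new methylation, while Dnmt1 copies it to the new strand after replication, guided by Uhrf1, which binds hemimethylated CpG. The TET enzymes Tet1, Tet2 and Tet3 oxidise 5-methylcytosine, and Tdg, a DNA glycosylase, cuts out the further oxidised bases for base excision repair. In the mouse germ line methylation is erased in primordial germ cells and set again in growing oocytes. Mouse Dnmt1 is known for alternative first exons, one of them used in oocytes. The peaks described here lie on the mRNAs of these enzymes and do not measure DNA methylation.

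The starts of Dnmt1 and Uhrf1 are shown because peaks at these starts were split by state, and those of Tet2 and Tdg because their start peaks were held by all 4 libraries. Each line gives 70 bases before the annotated start in lower case and the first 30 transcribed bases in capitals, written 5′ to 3′ along the gene, from RefSeq in build GRCm38.p6.
Dnmt1 FGSC start, chr9:20952950-20953049, minus strand: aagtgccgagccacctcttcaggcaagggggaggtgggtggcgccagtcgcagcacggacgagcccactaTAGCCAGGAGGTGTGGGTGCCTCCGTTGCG
Dnmt1 Dif-FGC start, chr9:20952594-20952693, minus strand: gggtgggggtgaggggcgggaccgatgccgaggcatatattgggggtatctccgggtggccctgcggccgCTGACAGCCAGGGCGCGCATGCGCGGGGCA
Uhrf1 first start, chr17:56303267-56303366, plus strand: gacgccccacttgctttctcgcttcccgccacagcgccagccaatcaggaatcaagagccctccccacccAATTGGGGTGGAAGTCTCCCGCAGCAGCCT
Uhrf1 second start, chr17:56304243-56304342, plus strand: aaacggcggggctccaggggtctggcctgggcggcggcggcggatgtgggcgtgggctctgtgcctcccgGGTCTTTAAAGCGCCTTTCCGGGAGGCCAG
Tet2 start, chr3:133544361-133544460, minus strand: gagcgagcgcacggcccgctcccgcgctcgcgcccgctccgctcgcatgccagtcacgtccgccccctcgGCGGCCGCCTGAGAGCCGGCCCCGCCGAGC
Tdg start, chr10:82629768-82629867, plus strand: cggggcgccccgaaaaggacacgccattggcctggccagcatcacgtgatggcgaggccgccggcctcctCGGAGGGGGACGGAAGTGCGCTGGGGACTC

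The depth of the libraries is unknown because the lists hold no read counts, so the absence of a peak does not mean the absence of ac4C. Paired values of a group are given with replicate 1 before replicate 2. The lists held 13920 to 22791 peaks in 6478 to 9050 genes. Fold enrichment is the authors' ratio of IP over input and is read here within a list, as a percentile counted from the strongest peak, so that a low percentile marks a strong peak. The authors' FDR of the peaks in the 8 genes ran from 51.9% to 100%, and 0 of these peaks had 5% or less, and no peak is taken here as proof of ac4C. The study calls the replicates biological, but the labels do not say that they were separate cultures, and p-values then cover only the spread between these libraries. Of 10 germ cell markers, Kit had a peak in all 4 libraries, Ifitm3 in FGSCs only and Prdm1 in Dif-FGC 2 alone, and the defining markers Ddx4, Dazl, Pou5f1, Stra8 and Sycp3 had none. Of 12 granulosa cell markers, Nr5a1 and Nr5a2 had peaks in both Dif-FGC lists and in neither FGSC list, with strongest folds of 15.4 and 6.08 for Nr5a1 and of 16.4 and 4.66 for Nr5a2 in Dif-FGC 1 and its replicate. Other markers of this list did not follow the state. Inhba had peaks in both FGSC lists, with strongest folds of 18.8 and 17.7, and in Dif-FGC 1 at 10.8. Kitl had 3 peaks in FGSC 1, the strongest at 19.6, and 1 in Dif-FGC 1 at 5.94, and Gata4 had peaks in FGSC 2 and Dif-FGC 1. Amhr2 and Hsd17b1 were found in Dif-FGC 1 alone and Inha in Dif-FGC 2 alone, and Foxl2, Amh, Fshr and Cyp19a1 had no peak. The part of granulosa cells in the results below was not tested, and in these bulk libraries fewer cells of a type and less RNA per cell cannot be told apart.

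The first question was whether the 8 genes carried more or fewer peaks after differentiation. The number of peaks was about the same in the 2 states, and 31 to 39 peaks fell in these genes in every library. The genes held 39 and 37 peaks in the FGSC libraries and 37 and 31 in the Dif-FGC libraries. FGSCs had a mean of 38 ± 1.41 peaks and Dif-FGCs of 34 ± 4.24 (SD, n = 2 each; exact two-sided permutation p = 0.667), and the groups touched at 37. Per 10000 peaks of the list the values were 17.1 and 22.7 for FGSCs and 16.5 and 22.3 for Dif-FGCs, so that replicates of a group lay farther apart than the group means of 19.9 ± 3.96 and 19.4 ± 4.11 (SD, n = 2 each; exact permutation p = 0.667). The sign of both differences depended on the choice of peaks. In lists trimmed to the length of the shortest, by fold, Dif-FGCs held 1 peak more on average than FGSCs, and in the higher 50% of each list 4.5 peaks more.

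The peaks covered 9478 bp and 8172 bp in FGSCs and 9855 bp and 10116 bp in Dif-FGCs. Both Dif-FGC values lay above both FGSC values, with means of 8825 ± 923 bp and 9985.5 ± 185 bp (SD, n = 2 each; exact two-sided permutation p = 0.333). Tet3 alone covered 4123 and 3855 bp in FGSCs and 5059 and 5345 bp in Dif-FGCs. Its rise was large enough to carry the whole difference, so the other genes together showed no rise in covered length. The smallest p that 2 against 2 libraries can reach is 0.33. The median length of all peaks also differed between lists, at 158, 164, 165 and 210 bp in the order FGSC 1, FGSC 2, Dif-FGC 1 and Dif-FGC 2, beside 105, 126, 147 and 165 bp in these genes.

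Over all peaks of the 8 genes together, the median position within the lists separated the states by far more than the spread between replicates. The median percentile by fold was 51.1 and 50.4 in the FGSC libraries and 36.4 and 36.1 in the Dif-FGC libraries. In FGSCs the median thus lay in the middle of the lists, and in both Dif-FGC lists it lay nearer the top. Dnmt1 supplied 12 and 8 of the peaks in the FGSC libraries and 13 and 10 in the Dif-FGC libraries, the most of any of these genes. The median without Dnmt1 is not given, so the closeness of replicates is not shown for the other genes. The means were 50.7 ± 0.493 and 36.2 ± 0.229 (SD, n = 2 each), a difference of -14.5 percentile points (exact two-sided permutation p = 0.333, the smallest that the design allows). Ranked by the authors' score, a negative log10 of p multiplied by 10, the difference was -12.9 points. The median fold of the genes' peaks was 9.91, 6.83, 9.78 and 10.7 in the order FGSC 1, FGSC 2, Dif-FGC 1 and Dif-FGC 2, and that of the whole lists was 10.1, 6.92, 7.06 and 7.92.

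The difference was smaller where the same loci were compared. At the 18 loci of these genes held by all libraries, the median percentile of their peaks was 34.3 and 40.9 in the FGSC libraries and 29.7 and 28.1 in the Dif-FGC libraries. All peaks of that class had medians of 22.6, 28.5, 19.6 and 27.3 in the same order. The genes' shared peaks thus stood lower in FGSC 1, FGSC 2 and Dif-FGC 1, and about level in Dif-FGC 2 (28.1 beside 27.3). Loci held by 1 state differed the other way, with medians of 36.5 and 36.6 for the 4 loci of FGSCs only and of 49.1 and 56.9 for the 6 loci of Dif-FGCs only. Over all genes the medians of these classes were 47.1 and 56.5 for FGSCs only and 54.9 and 68.6 for Dif-FGCs only. The direction was thus not particular to the 8 genes, although over all genes the 2 states overlapped. Loci found in 1 library had low ranks, with medians of 74.3, 70.3, 86.6 and 94, beside 68.2, 72.5, 71.3 and 79.8 over all peaks of that class. The FGSC lists held 10 such loci of these genes each, and the Dif-FGC lists 4 and 3. In the whole lists, peaks at such loci numbered 8364 of 22791, 4320 of 16290, 7446 of 22480 and 1673 of 13920 in the same order. That share did not follow the state. The libraries with more 1-library loci of the 8 genes were those in which the median over all peaks of these genes stood lower.

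**Figure D1:**
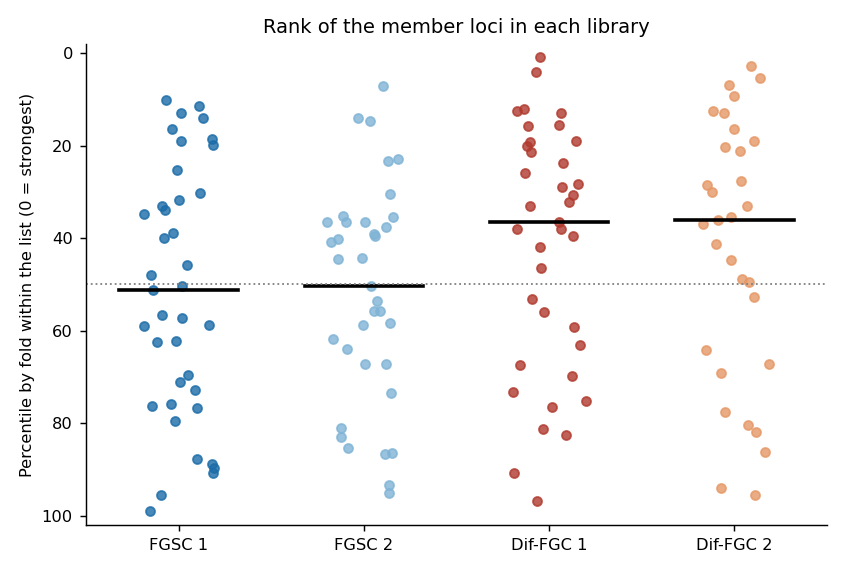
Percentile by fold (vertical axis, 0 is the strongest peak of the list) of each locus of the 7 genes with peaks, by its strongest peak, in the 4 libraries. Points are loci, black bars are the medians over peaks (51.1, 50.4, 36.4 and 36.1), and the dotted line marks 50. The points are spread over nearly the whole range in every library.

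The same tilt appeared in the scores. A score of at least 3100 was reached by 1 peak of these genes in each FGSC library, by 11 in Dif-FGC 1 and by 10 peaks of Dif-FGC 2. In the Dif-FGC lists all of these stood at exactly 3100, while in FGSC 1 and FGSC 2 they stood at 3172.49 and 3114.41. The highest scores of the whole lists are not given, so whether the upper end of the scale differed between the states was not tested. Scores of at least 3100 made up 2.56%, 2.7%, 29.7% and 32.3% of the peaks of these genes. The whole lists had 4.83%, 9.36%, 12.5% and 15.2% at that score. The share of the genes was thus below the list's in both FGSC libraries and above it in both Dif-FGC libraries. Dnmt1 supplied 5 of the 11 peaks in Dif-FGC 1 and 7 of the 10 in Dif-FGC 2.

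Peaks at shared loci were compared next. Of the 65 loci 18 (27.7%) held a peak in all 4 libraries, where the background over all loci was 15.5%. A peak in both FGSC libraries and in no Dif-FGC library was found at 4 loci (6.15%) against a background of 3.61%, and the reverse at 6 loci (9.23%) against 3.65%. A further 27 loci (41.5%) had a peak in 1 library, against 54.7% of all loci. Loci of a gene share its mRNA and are not independent of each other. Among the genes themselves 7 of 8 had a peak in all 4 libraries. These were 100% of the 7 genes with a peak, beside 43.5% of all genes with a peak. The counts were 0 for FGSCs only (background 5.25%), for Dif-FGCs only (1.62%) and for 1 library (22.6%).

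Of the 18 loci held by all libraries, 7 ranked higher by fold in both Dif-FGC lists than in both FGSC lists and 0 ranked higher in both FGSC lists, where the background over the 6160 loci held by all libraries was 22.6% and 16.3%. The 7 loci were 3 in Dnmt1 and 1 each in Dnmt3a, Uhrf1, Tet3 and Tdg. By the strongest peak of each gene, 5 of 7 genes ranked higher in both Dif-FGC lists and 1, Dnmt3b, in both FGSC lists, against 17.3% and 20.1% among the 4961 genes that all 4 libraries held. In each of the 5 genes the strongest peak was not the same locus in every library. Margins were narrow for Dnmt1, at percentile 12.9 in FGSC 1 and 12.1 in Dif-FGC 1. They were also narrow for Tdg (13.9 in FGSC 2, 12.5 in Dif-FGC 1) and Tet3 (22.8 in FGSC 2, 20 in Dif-FGC 1). The count of genes also changed with the measure of strength. With ranks by score 1 of 7 genes, Tet3, ranked higher in both Dif-FGC lists, where 13.1% of all genes did, and 1, Dnmt3b, in both FGSC lists, where 30.6% did. Dnmt1, Dnmt3a and Tet3 had peaks at a score of exactly 3100 in both Dif-FGC lists, and equal scores share a mean rank. Ranks by score thus could not separate the top peaks of those lists, which limits this comparison. In lists of the shortest length 3 of 6 ranked higher in both Dif-FGC lists, namely Dnmt1, Dnmt3a and Uhrf1, against 21.6% of all genes, and 0 in both FGSC lists, against 19.1%.

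**Figure D2:**
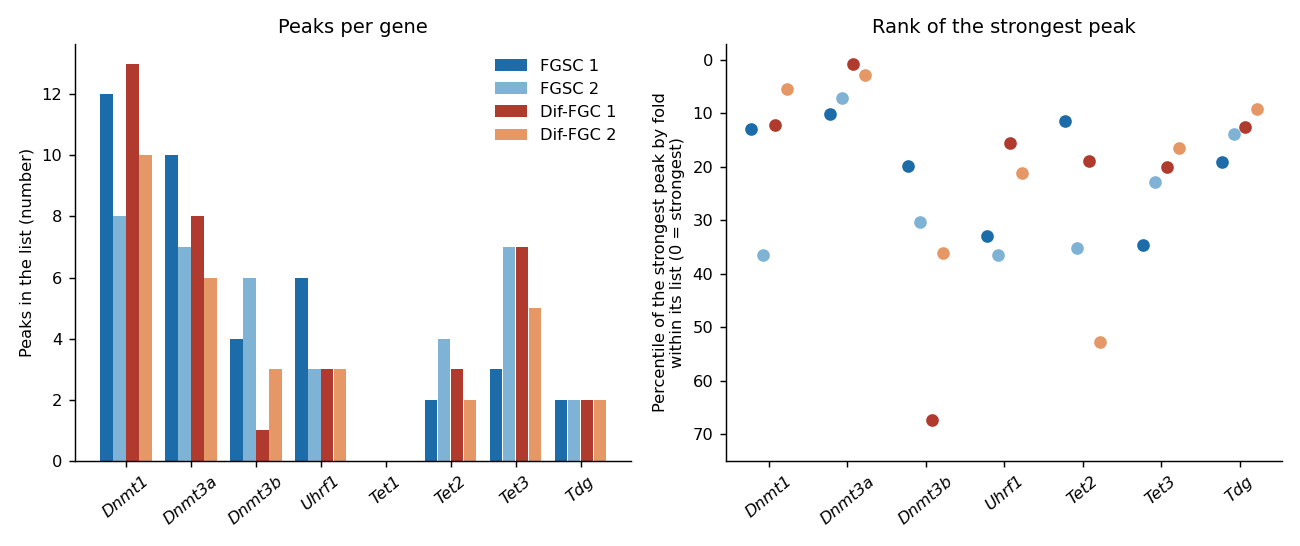
Left, number of peaks (bars) of each of the 8 genes in the 4 libraries. Right, percentile by fold of the strongest peak of each gene with peaks (points, 1 per library, 0 is the strongest of the list). Dnmt1 and Dnmt3a held the most peaks in FGSC 1 with 12 and 10, Tet1 held none, and the points of Dnmt3a lie between 0.73 and 10.1.

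Ordered by the mean percentile of the strongest peak over the 4 libraries, Dnmt3a came first at 5.17, followed by Tdg at 13.7, Dnmt1 at 16.7, Tet3 at 23.5, Uhrf1 at 26.6, Tet2 at 29.5 and Dnmt3b at 38.4. The ranges of neighbours overlapped at every step of this order. Dnmt3a stood before Tdg in 4 of 4 libraries, while each other neighbouring pair kept its order in 1 to 3 libraries. The genes most like this group, by the distance over the 4 libraries between the percentile of their strongest peak and the mean of the 7 genes, were Prmt1 at 2.85 percentile points, Cox5b at 5.3 and Mid1 at 5.45, among 4961 genes compared.

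**Figure D3:**
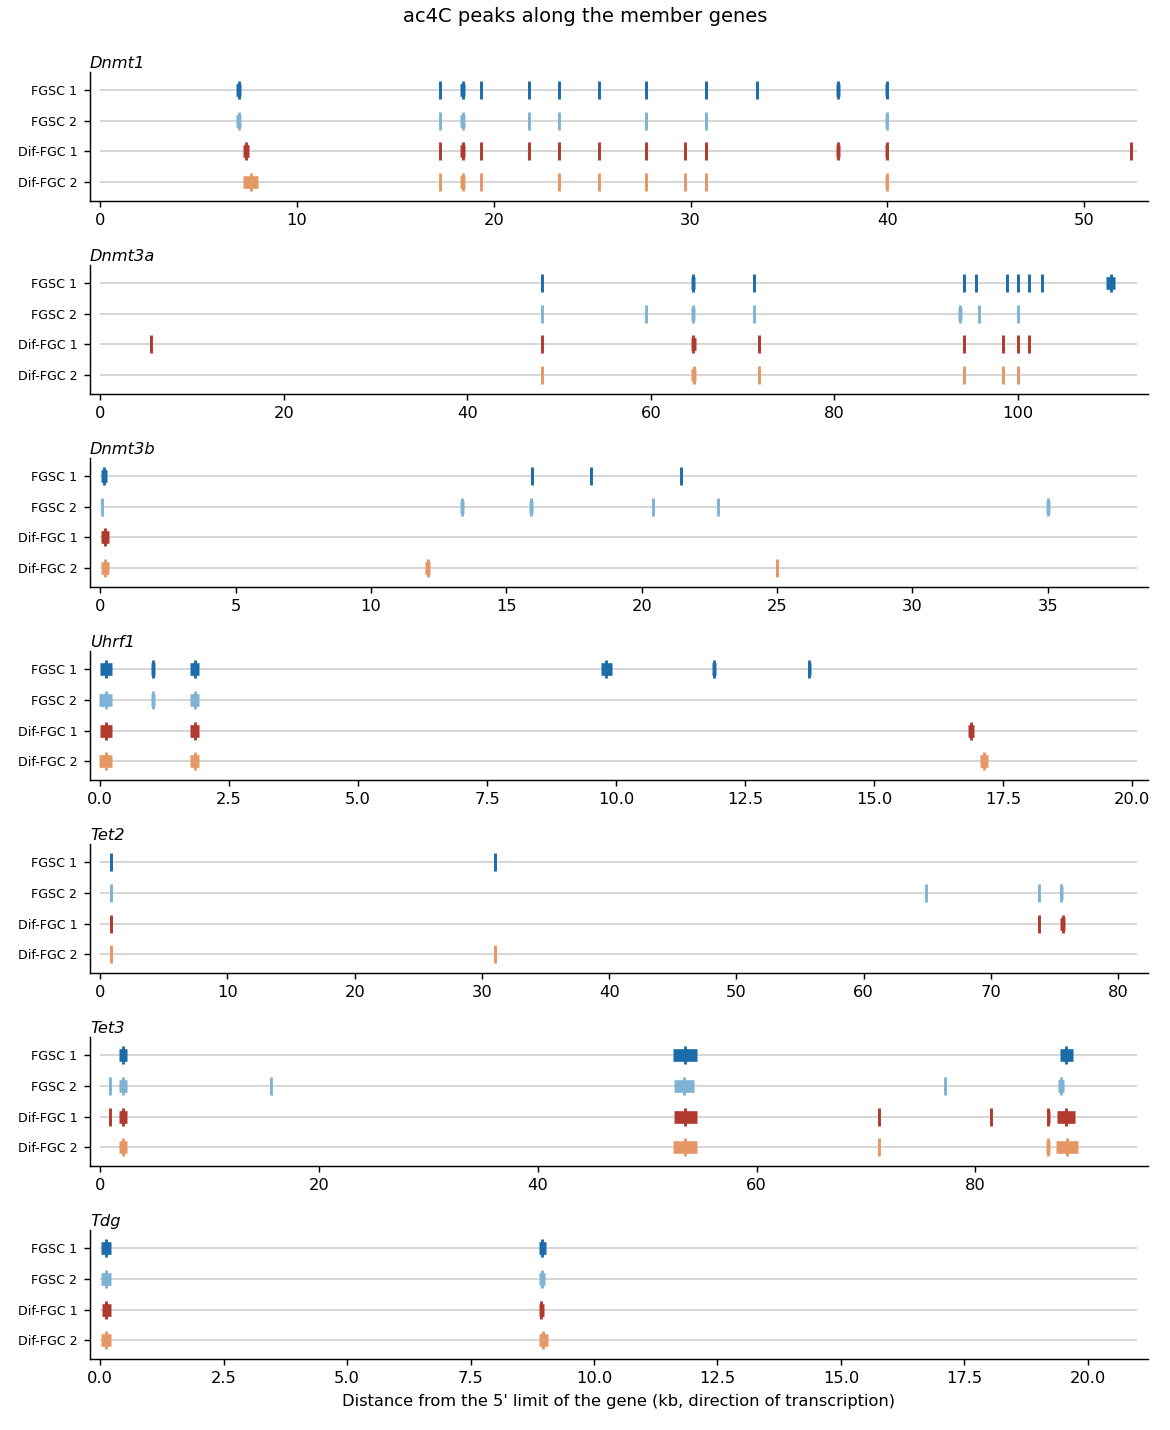
Peaks (coloured marks, width to scale where wider than the tick) along the 7 genes with peaks, 1 line per library, as distance from the 5′ limit of the gene in kb in the direction of transcription. Dnmt1 carries peaks at the same places in all libraries at 6 of its 15 loci. Tdg has 2 peaks in each library, and the peaks of Dnmt3b beyond its start differ between libraries.

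Among the maintenance enzymes, Dnmt1 (chromosome 9, minus strand) had one of the densest sets of peaks in the lists. Its 52.7 kb held 12 and 8 peaks in the FGSC libraries and 13 and 10 in the Dif-FGC libraries, and only 0.631% to 1.26% of the genes with a peak had as many. The peaks fell on 15 loci, of which 6 were held by all libraries, each with identical limits in the 4 lists. At the locus chr9:20932115-20932199 the fold was 14.85 and 5.73 in the FGSC libraries and 24.36 and 13.22 in the Dif-FGC libraries, and its percentile was 33.9, 58.4, 13 and 28.5. At chr9:20941352-20941583 the percentile was 59, 95.2, 38 and 44.8, and at chr9:20942583-20942619 it was 76.8, 67.2, 39.6 and 27.7 in the same order. At these 3 loci both Dif-FGC libraries ranked higher than both FGSC libraries, and at the other 3 shared loci the ranks of the groups overlapped. A short locus at chr9:20930125-20930165 was held by Dif-FGCs only, with folds of 12.44 and 7.99.

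At the 5′ side of Dnmt1 the peaks of the 2 states lay at different annotated starts. In FGSC 1 and FGSC 2 a peak of 272 bp at chr9:20952708-20952979 began exactly at the start printed above as the FGSC start, with folds of 32.43 and 9.76 (percentiles 12.9 and 36.6). In Dif-FGC 1 and Dif-FGC 2 peaks of 298 and 778 bp within chr9:20951846-20952623 began exactly at the start 356 bp downstream, with folds of 25.96 and 45.5 (percentiles 12.1 and 5.45). Neither start was held by a library of the other state. The strongest Dnmt1 peak by fold was the one at the start in FGSC 1 and in both Dif-FGC libraries. The authors assigned the FGSC and Dif-FGC peaks to different transcripts of the gene. Another annotated start farther upstream had no peak in any library, and none of the starts is named by its tissue in the table used.

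This split was found after the values had been seen, and it rests on 2 libraries a group with no test. Only 84 bases separate the FGSC and the Dif-FGC peaks, so that merging peaks within 100 bp turns them into 1 locus held by all libraries. The split by start was kept in lists of the shortest length and in the higher 50% of each list. Of the 499 genes with 2 or more annotated starts that carried a peak, 5, or 1%, had opposed starts, 1 held by FGSCs only and another by Dif-FGCs only, and Dnmt1 was 1 of them beside C730034F03Rik, Csnk1e, Rsrc1 and Ugp2. Windows of 300 bases were read at the starts, lying mostly before the start and ending with its first 50 transcribed bases. The window at the FGSC start held 12 CpG with 57% GC, and that at the Dif-FGC start held 33 CpG with 69.7% GC. The Dif-FGC window reaches upstream into the FGSC peak, so these values do not compare the 2 peaks.

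**Figure D4:**
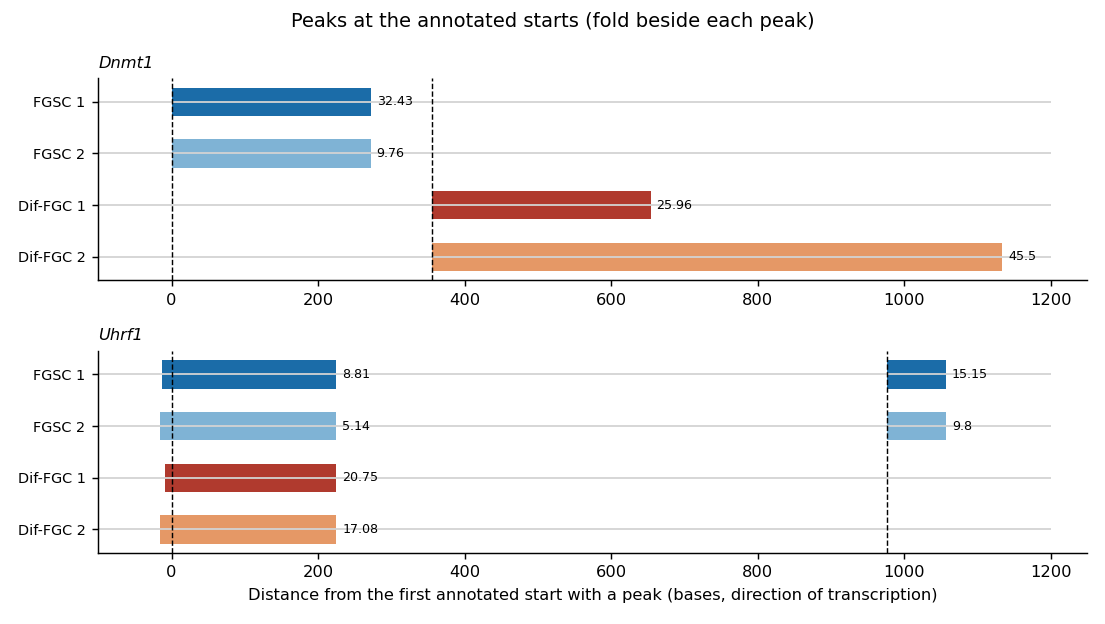
Peaks (bars, to scale) at the annotated starts of Dnmt1 and Uhrf1 in the 4 libraries, as distance in bases from the first annotated start with a peak, in the direction of transcription. Dashed lines mark annotated starts and the number beside each bar is the authors' fold. In Dnmt1 the FGSC bars begin at 0 and the Dif-FGC bars at 356, and in Uhrf1 the start at 976 has bars in the FGSC libraries only.

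Uhrf1 (chromosome 17, plus strand), the partner of Dnmt1 at hemimethylated CpG, also had start peaks that differed between the states. It held 6 peaks in FGSC 1 and 3 in each other library, on 8 loci. The peak at its first start was found in all libraries, with folds of 8.81 and 5.14 in the FGSC libraries and 20.75 and 17.08 in the Dif-FGC libraries and percentiles of 57.2, 64, 15.6 and 21.1. Both Dif-FGC libraries ranked it far above both FGSC libraries. The second start, 976 bp downstream, carried a peak of 81 bp at chr17:56304313-56304393 in FGSCs only, with folds of 15.15 and 9.8 (percentiles 33 and 36.5). In FGSCs the second start thus carried the strongest Uhrf1 peak, and in Dif-FGCs the first did. A locus near by, chr17:56305086-56305250, had identical limits in all 4 lists and overlapping ranks of 51.1, 39.5, 42 and 67.2. The other 5 loci were each found in 1 library.

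Of the enzymes that place new methylation, Dnmt3a (chromosome 12, plus strand) held the strongest peaks of the group. Over its 113 kb it carried 10 and 7 peaks in the FGSC libraries and 8 and 6 in the Dif-FGC libraries, on 16 loci. The peak at chr12:3849635-3849739 had the same limits in every list and folds of 38.79, 47.69, 57.93 and 70, with percentiles of 10.1, 7.1, 4.13 and 2.72 in the order FGSC 1, FGSC 2, Dif-FGC 1 and Dif-FGC 2. It stood among the upper ranks of all lists, and higher in both Dif-FGC lists than in both FGSC lists. A start peak at chr12:3806980-3807120 appeared in Dif-FGC 1 alone with a fold of 182.3, the highest of any peak in the 8 genes, and had no counterpart in Dif-FGC 2.

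Within Dnmt3a a second pair of near neighbours was split by state. The locus chr12:3872835-3872878 was held by FGSCs only, with folds of 12.6 and 6.32, and chr12:3873282-3873428 by Dif-FGCs only, with folds of 13.42 and 10.92. Unlike the pair in Dnmt1, neither lies at an annotated start. A further locus, chr12:3899864-3900047, was held by Dif-FGCs only with folds of 4.46 and 6.14. Of the 16 loci 8 were found in 1 library.

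Dnmt3b (chromosome 2, plus strand) went the other way in rank. It held 4 and 6 peaks in the FGSC libraries and 1 and 3 in the Dif-FGC libraries, so that the FGSC libraries each held more than either Dif-FGC library. Its strongest peak stood at percentile 19.8 and 30.4 in FGSCs and at 67.4 and 36.1 in Dif-FGCs. Of its 10 loci 1 was shared by all libraries, the peak at its start, with folds of 19.05, 3.78, 5.02 and 10.74 that overlapped between groups. The locus chr2:153665252-153665377 was held by FGSCs only, with folds of 4.67 and 11.95, and the other 8 loci were each found in 1 library.

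Of the TET enzymes Tet1 had no peak in any list. Tet2 (chromosome 3, minus strand) held 2 and 4 peaks in the FGSC libraries and 3 and 2 in the Dif-FGC libraries. Its start peak of 191 bp at chr3:133544200-133544390 had identical limits in all 4 lists and was the strongest Tet2 peak in each, with folds of 35.56, 10.26, 17.63 and 7.54 and percentiles of 11.4, 35.1, 18.9 and 52.7. Replicates differed here as much as the groups did, and 0 Tet2 loci were particular to a state by presence. The window at this start, lying mostly before it, held 57 CpG, more than that of any other start of the 8 genes.

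Tet3 (chromosome 6, minus strand) carried the longest peaks of the group. It held 3 and 7 peaks in the FGSC libraries and 7 and 5 in the Dif-FGC libraries, covering 4123, 3855, 5059 and 5345 bp. The locus chr6:83402667-83404824 was covered by peaks of 2158, 1837, 2081 and 2158 bp with folds of 8.47, 15.93, 16.81 and 20.87 and percentiles of 58.7, 22.8, 20 and 16.4. Both Dif-FGC libraries ranked it higher, although FGSC 2 lay close to them and far from FGSC 1. The locus chr6:83454750-83455480 had the same 731 bp limits in all lists and ranks that overlapped between groups. Toward the 3′ side, loci at chr6:83370383-83370719 and chr6:83385985-83386075 were held by Dif-FGCs only, at low folds of 4.79 and 4.17 and of 4.17 and 4.66.

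Tdg (chromosome 10, plus strand), the glycosylase that follows the TET enzymes, was the most even of the genes, with 2 peaks in every library. Its start peak, chr10:82629838-82630038, had folds of 24.17, 25.6, 15.84 and 31.7 and percentiles of 19, 13.9, 21.4 and 9.25, and the groups overlapped. At chr10:82638701-82638876 the folds were 7.92, 24.38, 25.45 and 25.6 and the percentiles 62.3, 14.6, 12.5 and 12.6, so that FGSC 1 stood apart from the other 3 libraries.

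The annotated starts were then counted. The table of RefSeq starts gave 13 for the 8 genes, and 9 of them carried a peak on at least 1 of their first 50 transcribed bases. By library, 4 of these 9 starts were held by all 4, where the background over 6591 starts with a peak was 33.3%, 2 by FGSCs only (background 5.61%) and 1 by Dif-FGCs only (background 3.66%). The starts in all libraries were those of Dnmt3b, Tdg and Tet2 and the first of Uhrf1. In 19 of 24 pairs of a start and a library the peak began exactly at the annotated start (79.2%, beside 48% over all genes). Peak limits therefore follow the annotation at these places, and how far the signal ran past a limit cannot be read from the lists. The share of peaks that lay at a start was 15.4% to 18.9% in these genes and 17.7% to 25% in the lists.

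The windows of 300 bases at these 9 starts lay mostly before the start and ended with its first 50 transcribed bases. They held a median of 30 CpG, from 12 to 57, beside 23 for all windows with a peak and 7 for all 32851 windows. Their median GC was 69.7%, against 62.7% and 52.7%. The motif CNNCNNCN, in which C recurs every 3 bases and N is any base, has been used to describe ac4C sites. It was found in the first 50 transcribed bases of 5 of the 9 starts on the sense strand, where 62.7% of windows with a peak and 50% of all windows hold it. On the antisense strand 7 of the 9 held it, where the shares were 79.4% and 59.3%. Matches of the motif may overlap each other, and a match describes letters and not an acetylated site.

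Genes that work with these enzymes were read against the shares over all genes with a peak, of which 43.5% had one in all 4 libraries, 5.25% in both FGSC libraries alone and 1.62% in both Dif-FGC libraries alone. Of 12 partners and regulators of the DNA methyltransferases, 7 had a peak and 3 of these (42.9%) had one in all 4 libraries, a share near that of all genes. The 3 were Trim28, a corepressor that recruits silencing complexes, Uhrf2, the paralogue of Uhrf1, and Usp7, a deubiquitinase. Hells, a chromatin remodeller needed for normal DNA methylation, was the one with peaks in FGSCs only, with strongest folds of 15.5 and 4.42. Dnmt3l, the catalytically inactive partner of Dnmt3a in germ cells, had no peak, and neither had Pcna, Dmap1, Dppa3 or Dnmt3c.

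Of 10 readers of methylated CpG all had a peak in some library and 5 (50%) in all 4 libraries, near the share over all genes. Mbd3, a subunit of the NuRD complex, had strongest folds of 404, 327, 271 and 210 and stood at percentiles of 0.219 to 0.583, above every peak of the 8 enzymes. Mbd2, its methyl-binding relative, followed with percentiles of 0.54 to 2.95, and Zbtb4 with 8.06 to 23.6. Mbd1 had peaks in FGSCs only, with strongest folds of 7.33 and 3.6.

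Of 10 TET partners and CXXC proteins all had a peak and 4 (40%) had one in all 4 libraries, again near that share. Idh2, the mitochondrial enzyme that makes the 2-oxoglutarate TET enzymes need, had strongest folds of 40.5, 54, 71.8 and 151 and percentiles of 9.45, 6.23, 3.13 and 0.69, so that both Dif-FGC libraries ranked it higher. Kdm2b, which binds unmethylated CpG islands, stood at 10.2 to 16.9. Cxxc5 went the other way, at 10.6 and 9.44 in FGSCs and 28.2 and 32.9 in Dif-FGCs. Cxxc1, a subunit of the SETD1 complexes, had peaks in FGSCs only, with strongest folds of 17.9 and 5.99.

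Of 12 genes of base excision repair downstream of Tdg, 11 had a peak, 6 of these (54.5%) in all 4 libraries and 0 in 1 state only, beside 5.25% and 1.62% of all genes. The DNA ligase Lig1 had strongest folds of 470, 113, 74.1 and 26.9, with percentiles of 0.184 and 2.39 in FGSCs and 2.96 and 11.8 in Dif-FGCs. Parp1, a sensor of strand breaks, also ranked higher in both FGSC lists, at 2.58 and 4.68 against 13 and 10.5, while for the scaffold Xrcc1 the groups overlapped. Of 11 genes that supply the methyl donor, 9 had a peak, 6 of these (66.7%) in all 4 libraries, beside 43.5% of all genes. Ahcyl1 and Mat2b, the regulatory subunit of methionine adenosyltransferase, stood at 2.02 to 4.77 and 3.27 to 9.01, and Mtr, methionine synthase, at 7.44 to 35.7. Mtrr, which reactivates methionine synthase, had peaks in FGSCs only, with strongest folds of 11.8 and 2.91.

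**Figure D5:**
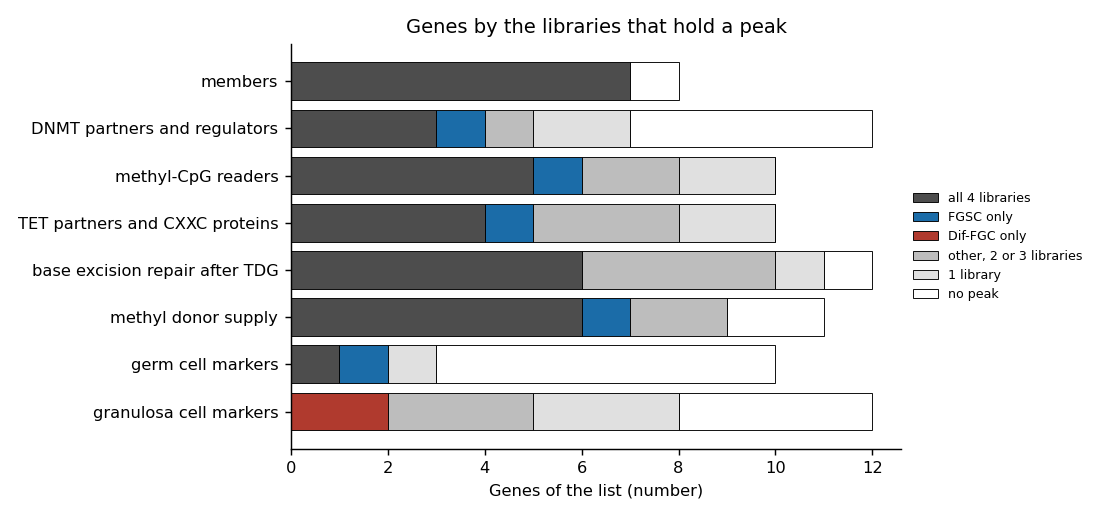
Number of genes (bars, stacked) of each list by the libraries in which they hold a peak: all 4, both FGSC libraries only, both Dif-FGC libraries only, other sets of 2 or 3 libraries, 1 library, or none. Of the 8 enzymes 7 are in all 4 libraries, and the genes in Dif-FGCs only are 2 granulosa cell markers.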

How the data were processed

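Peak lists of 4 IP libraries (2 FGSC, 2 Dif-FGC) were used. Build mm10 and the tools cutadapt, HISAT2 and MACS2, without versions, are listed in the submitters' processing notes, and the inputs entered only through the peak calls. The deposited fold is the authors' ratio between IP and input. The deposited score is the authors' negative log10 of p multiplied by 10. The authors' FDR is a percent and was not used as a filter, and peak length was also read from the deposited lists, in bp. The form of score and FDR resembles older MACS releases, so their exact definition is not settled. Depth is unknown.

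Intervals were read as half-open from 0 and are printed from 1. Peaks overlapping by at least 1 bp were merged with python 3.11.15 and pandas 2.3.3; merging recovered 20000 of 20000 simulated loci. A state held a locus, gene or start only with peaks in both its libraries and in neither of the other state. Differences of group means were set against all 6 assignments of the libraries in an exact two-sided permutation test. All 8 enzymes are named, ordered by the mean percentile of the strongest peak; of each list, every gene in 1 state only and up to 3 best ranked in all libraries are named. The members and lists were chosen with earlier results of these data known, and the starts, the motif in start windows and the counts of ranks that do not overlap were added after seeing the data. The motif over whole peaks was not run, since no genome was used here. Exons were not annotated.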

Additional observations from a re-analysis of the deposited data

How the results depend on the processing

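Over 4 libraries without counts, depth, strand or exons, presence of a peak depends on the length of its list. Peaks at low fold, loci of 1 library and values that rest on FGSC 1 or FGSC 2 alone are the least firm.

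The difference in median percentile kept its sign under every alternative run, from -14.9 to -14.2 with each library left out, at -11.4 in lists of the shortest length and at -11.8 in the higher 50% of each list. Covered bases kept theirs, from 508 to 1813.5 bp with each library left out. No run left out a gene, so the part of Dnmt1 in the median percentile was not separated. For covered bases the rise of Tet3 alone, given above, was large enough to carry the whole difference. The difference in peaks, -4, ran from -7 to -1 with each library left out, but was 1 in lists of the shortest length and 4.5 in the higher 50%. Per 10000 peaks it was -0.548, but 0.718 and 6.81 in these lists, 2.25 without FGSC 2 and 2.36 without Dif-FGC 1, from -3.45 to 2.36 over the libraries left out. The cause was not tested.

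In the higher 50% the loci in all libraries fell from 18 to 5, those in FGSCs only from 4 to 2, the starts in all libraries from 4 to 1, and the starts in Dif-FGCs only numbered 2. With a peak in 1 library of a group enough, the loci numbered 28 shared, 24 of FGSCs only and 13 of Dif-FGCs only, and 2 starts were of Dif-FGCs only. Leaving out a library gave 4 to 14 loci in FGSCs only (14 without FGSC 1 and 14 without FGSC 2), 6 to 10 in Dif-FGCs only and 1 to 2 starts in Dif-FGCs only (10 and 2 without Dif-FGC 2), since 1 library then stood for its state. Shares over all loci or starts are not given for these settings, so the counts show only how far the classes depend on the rule.

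Genes ranking higher in both Dif-FGC lists numbered 5 of 7 (17.3% of all genes), but 3 of 6 in lists of the shortest length (21.6%), 5 of 5 in the higher 50% and 1 of 7 by score (13.1%). Those higher in both FGSC lists numbered 1 of 7, but 0 in the shortest and higher 50% lists and 1 to 2 without a library. The loci higher in both Dif-FGC lists, 7 of 18, numbered 1 of 5 in the higher 50% and 10 to 11 without a library, and those higher in both FGSC lists, 0, numbered 1 by score and 1 to 4 without a library. Shares over all genes or loci are not given for the higher 50%, for loci by score or without a library. With a library left out, 1 library stands for its state and ranks separate more easily. These counts therefore show only how far the result depends on the rule.

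With the replicate number as a block, differences of -4, -0.548, 1160.5 and -14.5 stood at p = 0.5, the smallest that an exact test of 2 pairs gives. The labels do not say that a number marks a shared culture, and the correlation of same-numbered deviations in peaks per gene was 0.128, or -0.00769 in lists of the shortest length.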

Other observations

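Among the 27 loci of these genes with a peak in 1 library, the FGSC libraries held 10 each, Dif-FGC 1 held 4 and Dif-FGC 2 held 3. Dnmt3a and Dnmt3b held 8 each, while Tdg held none. The start peak of Tet3 was found in FGSC 2 alone, with a fold of 8.84, and the peak of Dnmt3a nearest its 3′ limit, 977 bp long with a fold of 8.92, in FGSC 1 alone.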
